A study of Mus musculus with 6 samples.

Results

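The regions described here are the 284 broad peaks of accessible chromatin in untreated mouse embryonic stem cells, those at least 2000 bp wide on chromosomes 1 to 19. They were chosen by width alone, among 75108 peaks on these chromosomes (0.378%) and 77629 in the whole library. The assay was ATAC-seq, where Tn5 transposase cuts and tags open DNA, so that stacks of reads mark regulatory sequence. The cells are the line E14 with an NSD1-dTAG knockin, grown in 2i/LIF medium, which holds stem cells in the naive state with a MEK inhibitor (PD0325901), a GSK3 inhibitor (CHIR99021) and LIF. The tag lets the small molecule dTAG-13 direct NSD1, a methyltransferase of histone H3 lysine 36, to degradation, but this library (0 h) received none. The labels list 5 more samples, cells treated with 500 nM dTAG-13 for 1, 6 or 24 h by their titles (the treatment labels of all 3 state 6 h) and day 6 embryoid bodies, treated or not, none of which was analysed here. The sources used here do not say whether the line is a single clone. With 1 library there is no replicate check, no p-value is given, and intervals cover only counting error or the spread over peaks, starts or genes of this library.

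Most accessible sites in a mammalian nucleus are short, a nucleosome-free gap at an enhancer or a promoter. Wide stretches of open chromatin are known from CpG island promoters, where unmethylated, CG-rich DNA disfavours stable nucleosomes, from dense gene clusters such as those of histones, and from repeated sequence that collects reads from many copies. The genes of developmental regulators often lie in the largest CpG islands, and in stem cells many of these are held by Polycomb proteins.

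To show what sequence lies under such regions, 250 bases before the annotated start are printed for 10 genes, from the RefSeq promoter table of GRCm38.p6, read 5′ to 3′ along the gene with every CG dinucleotide in capitals. The first 6 belong to the widest gene-end peaks for which the table holds a start inside the peak, and differ among themselves: the promoter of Hmga1 held 34 CG dinucleotides in these 250 bases, that of Tshz3 27, and those of the histone genes H4bc24 and H2ac23 15 and 16. Trim71 and Tdgf1 are shown as pluripotency genes with a broad peak, and differ as well, with 17 and 7 CG dinucleotides. Gm10840 and Gcnt4 had the lowest CpG observed/expected ratios among protein-coding starts in broad peaks, with 6 and 3 CG dinucleotides.
Tshz3 (chr7:36697868-36698117, + strand): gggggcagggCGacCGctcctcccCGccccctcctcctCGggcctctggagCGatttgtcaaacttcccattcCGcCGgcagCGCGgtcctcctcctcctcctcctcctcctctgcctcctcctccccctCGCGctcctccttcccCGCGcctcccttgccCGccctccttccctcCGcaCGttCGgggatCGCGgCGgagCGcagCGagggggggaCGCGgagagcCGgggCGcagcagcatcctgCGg
H4bc24 (chr13:21833493-21833742, + strand): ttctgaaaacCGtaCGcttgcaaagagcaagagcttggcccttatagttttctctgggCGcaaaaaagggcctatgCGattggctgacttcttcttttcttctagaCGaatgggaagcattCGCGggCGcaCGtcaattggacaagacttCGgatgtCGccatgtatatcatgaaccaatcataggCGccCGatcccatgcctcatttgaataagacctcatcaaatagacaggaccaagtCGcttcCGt
Adrb1 (chr19:56721867-56722116, + strand): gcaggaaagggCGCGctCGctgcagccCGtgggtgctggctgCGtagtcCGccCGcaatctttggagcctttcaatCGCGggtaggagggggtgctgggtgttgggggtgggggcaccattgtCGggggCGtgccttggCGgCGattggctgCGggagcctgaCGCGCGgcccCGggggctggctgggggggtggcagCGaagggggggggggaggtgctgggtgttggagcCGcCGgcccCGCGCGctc
H2ac23 (chr13:21810117-21810366, + strand): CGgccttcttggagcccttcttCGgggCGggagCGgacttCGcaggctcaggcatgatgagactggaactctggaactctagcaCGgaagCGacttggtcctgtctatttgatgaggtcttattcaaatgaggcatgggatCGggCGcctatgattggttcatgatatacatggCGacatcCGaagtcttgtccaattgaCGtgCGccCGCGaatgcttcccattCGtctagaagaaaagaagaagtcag
Hmga1 (chr17:27556324-27556573, + strand): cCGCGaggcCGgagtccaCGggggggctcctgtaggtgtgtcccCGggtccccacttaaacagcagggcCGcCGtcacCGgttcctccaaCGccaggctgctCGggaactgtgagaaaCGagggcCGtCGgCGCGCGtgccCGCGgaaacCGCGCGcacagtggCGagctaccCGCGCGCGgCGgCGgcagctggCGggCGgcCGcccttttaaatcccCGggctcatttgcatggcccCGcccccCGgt
Slc18a3 (chr14:32464851-32465100, - strand): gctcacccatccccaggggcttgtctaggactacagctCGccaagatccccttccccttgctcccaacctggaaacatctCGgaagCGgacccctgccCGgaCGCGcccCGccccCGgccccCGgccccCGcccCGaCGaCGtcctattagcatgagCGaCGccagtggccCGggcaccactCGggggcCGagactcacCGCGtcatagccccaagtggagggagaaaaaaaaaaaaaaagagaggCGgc
Trim71 (chr9:114564370-114564619, - strand): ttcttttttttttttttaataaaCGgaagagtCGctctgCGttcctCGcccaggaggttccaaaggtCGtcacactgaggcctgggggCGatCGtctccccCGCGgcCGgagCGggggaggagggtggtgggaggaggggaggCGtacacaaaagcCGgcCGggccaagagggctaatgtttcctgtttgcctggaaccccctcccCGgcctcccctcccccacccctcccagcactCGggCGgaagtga
Tdgf1 (chr9:110946159-110946408, - strand): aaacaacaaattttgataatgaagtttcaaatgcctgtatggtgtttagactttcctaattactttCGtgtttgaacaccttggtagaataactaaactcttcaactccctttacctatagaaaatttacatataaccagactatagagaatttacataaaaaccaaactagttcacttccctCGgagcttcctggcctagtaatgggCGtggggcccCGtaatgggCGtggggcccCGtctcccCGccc
Gm10840 (chr11:106159138-106159387, + strand): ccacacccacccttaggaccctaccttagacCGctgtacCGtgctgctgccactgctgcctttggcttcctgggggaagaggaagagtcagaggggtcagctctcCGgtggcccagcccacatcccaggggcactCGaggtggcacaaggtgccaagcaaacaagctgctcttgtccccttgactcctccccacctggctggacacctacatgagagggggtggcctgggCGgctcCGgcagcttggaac
Gcnt4 (chr13:96924094-96924343, + strand): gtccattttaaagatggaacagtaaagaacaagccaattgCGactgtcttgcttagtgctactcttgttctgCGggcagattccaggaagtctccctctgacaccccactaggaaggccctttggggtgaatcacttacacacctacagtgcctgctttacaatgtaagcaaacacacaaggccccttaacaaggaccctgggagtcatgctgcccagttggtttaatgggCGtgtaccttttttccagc

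Broad peaks lay mostly at gene ends, except for the widest of them. Of the 284, 169 (59.5%, Wilson 95% interval 53.7 to 65.1) reached within 1 kb of an annotated end of a protein-coding gene, 21 (7.4%) reached the end of a non-coding gene only, and 94 (33.1%) were distal, with no annotated gene end within 1 kb. The gene table gives both ends of a gene without strand, so an end may be a start or a terminus. Wide peaks reach further and meet an end more easily, so the place of the summit, the highest point, was taken as well. By summit, 46.5% (40.8 to 52.3) of broad peaks were at a protein-coding end, against 51.5% of the 8535 peaks from 1000 bp to under 2000 bp, called intermediate below, and 14.3% of the 66289 narrower ones. By overlap, the shares of these were 56.0% and 15.6%. By overlap the share was 71.2% (66.4 to 75.5) from 1750 bp to the threshold, 64.1% (156 peaks) from there to 2250 bp, 70.0% (70 peaks) up to 2500 bp, 53.3% (36.1 to 69.8) of 30 peaks up to 3000 bp and 14.3% (5.70 to 31.5) of the 28 peaks of 3000 bp or more. Of those 28, 82.1% were distal. The widest 20 peaks included no protein-coding end, 19 being distal and 1 at the end of a non-coding gene.

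**Figure D1:**
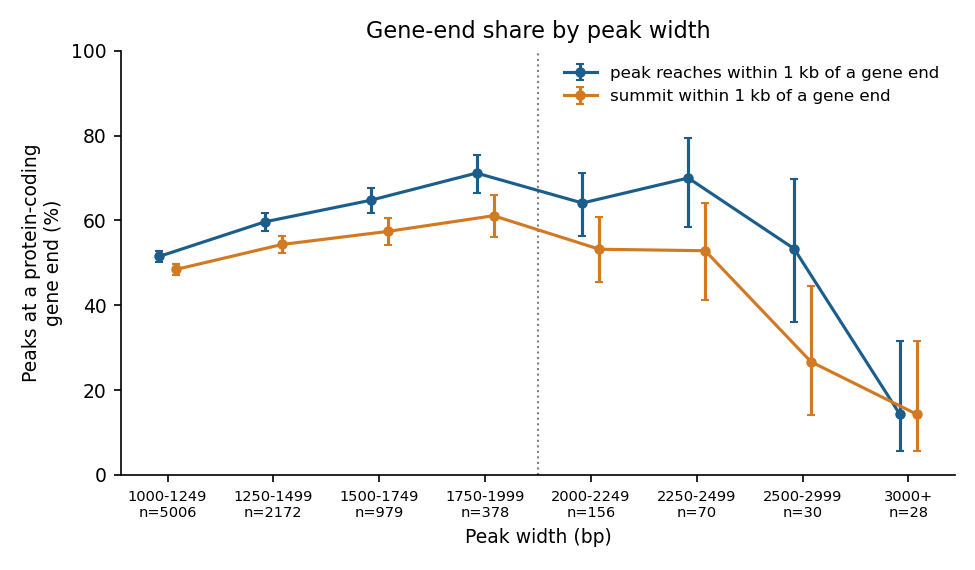
Share of peaks at a protein-coding gene end (y axis, percent) in 8 classes of peak width (x axis, bp, with the number of peaks), for peaks that reach within 1 kb of an end (blue) and for summits within 1 kb (orange). Bars are Wilson 95% intervals and the dotted line marks 2000 bp; the blue share is 71.2% just below that line and 14.3% in the widest class.

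Widths ran on across the threshold without a gap, and 5 peaks on each side are too few to show whether other values step there. The 5 peaks just inside the threshold were 2001 to 2006 bp wide, among them those at Pbx3 (2002 bp, pileup 87) and Pde3b (2006 bp, pileup 55). The 5 just outside were all at least 1996 bp wide, among them those at Fabp3 (pileup 51), Inhbb (1998 bp, 47), Tbx18 (1996 bp, 51) and Tln2 (1996 bp, 38). Pileups ran from 55 to 139 in the 5 inside and from 38 to 148 in the 5 outside. Pileup here is the height of the summit in reads or fragments, recovered from the authors' deposited values, which do not say which of these it counts.

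Broad peaks were not the tallest over their surroundings. Their median pileup was 67.5 (interval 62 to 76) and their median local background 7.59, giving a median fold enrichment of 7.60, the authors' ratio of summit to background. The 169 gene-end peaks had a median pileup of 70 (62 to 82) with a background of 8.16 and a fold of 7.59. Intermediate gene-end peaks had a pileup of 75 (73 to 76) but a background of 6.05 and a fold of 10.82. Thus a fold of 10 or more was found in 14.2% of broad gene-end peaks and in 59.5% of intermediate gene-end peaks. Away from gene ends the pileup of the broad peaks was higher, with a median of 66.5 (56 to 74) in the 94 distal ones against 48 (47 to 49) in intermediate distal peaks. Of these 94, 49 (52.1%) had the summit inside a protein-coding gene. Their backgrounds were 6.74 and 3.50, and their folds 7.63 and 10.20. The local background comes from the same library, so a wide open region can raise its own background; the part of this in the lower folds was not tested. Width, pileup, background and fold all come from the signal that chose these peaks, and their differences are descriptions.

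**Figure D2:**
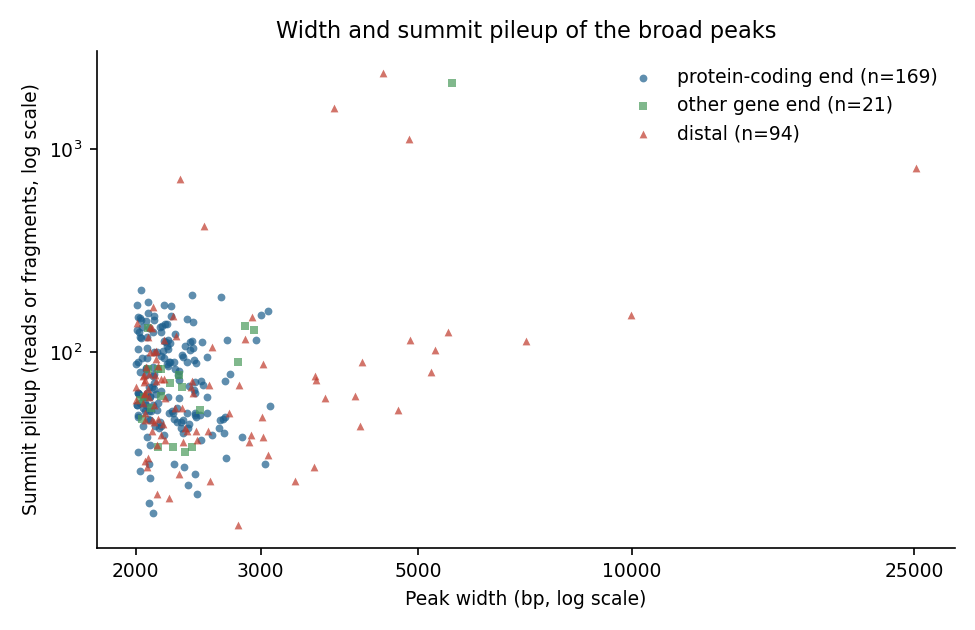
Summit pileup (y axis, reads or fragments, log scale) against peak width (x axis, bp, log scale) for the 284 broad peaks, by place: protein-coding gene end (blue circles), other gene end (green squares) and distal (red triangles). Protein-coding gene-end peaks stop at 3092 bp, while distal ones reach 25149 bp and 1 at the end of a non-coding gene 5588 bp.

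At protein-coding genes, the 169 peaks reached the ends of 207 of 20661 genes on chromosomes 1 to 19 (1.00%), or 1.47% of the 14076 genes with any peak at an end. Their pileups ran from 16 to 202. In 132 of the 169 peaks (78.1%) the summit lay within 1 kb of a protein-coding end. In the rest the pileup was measured further from any such end. Of the peaks named below, those at Hmga1, Foxl2, Prdm16, Tent5a, Cxxc5, Crlf2, Hnrnpu and Eno3 with Pfn1 are among this rest. Among the widest were several transcription factors, none of them in the developmental list counted below. The widest gene-end peak, 3092 bp at chr7:36695511-36698602, covered the start of Tshz3, a zinc finger factor of neuron and smooth muscle development, and of the neighbouring Gm36722, with a pileup of 54 (exact Poisson interval 40.6 to 70.5). Forkhead factors were at Foxb1 (chr9:69758564-69761243, 2680 bp, pileup 30), Foxo1 (2670 bp, 72), Foxe1 (2663 bp, 40) and Foxl2 (2632 bp, 46). All 4 are wide, but only the peak of Foxo1, a factor under insulin control, exceeded the median pileup of broad gene-end peaks. Prdm16, a regulator of brown fat and blood stem cells, had 2619 bp and a pileup of 42. The Krüppel-like factors Klf16 (2691 bp, 114), Klf13 (chr7:63937295-63939933, 2639 bp, 186) and Klf12 (chr14:100284452-100286482, 2031 bp, 202) were tall as well as wide, and the Klf12 pileup (175 to 232) was the highest of all 169 gene-end peaks.

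Others of the 20 widest belonged to genes of varied function. Adrb1, the beta-1 adrenergic receptor, lay in 3040 bp (chr19:56721414-56724453) with a pileup of only 28 (18.6 to 40.5). Chat and Slc18a3, which make and package acetylcholine and share a locus, lay in 2826 bp with a pileup of 38, and Rims2, a protein of the synaptic release site, in 2670 bp with 48. Tril, an accessory protein of Toll-like receptor signalling, had 2653 bp and 47. Crlf2, the receptor for thymic stromal lymphopoietin, had 2516 bp and a higher pileup of 95. Tent5a, a non-canonical poly(A) polymerase, had 2557 bp and 39, and the peak that Eno3, the muscle enolase, shared with Pfn1, an actin-binding profilin, had 2517 bp and 50. The lowest gene-end peaks were those of Emilin2, an extracellular matrix protein (2115 bp, 16, interval 9.15 to 26.0), and Phf19, a Polycomb-associated protein (2085 bp, 18), followed by 4930426D05Rik with 20.

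Chromatin genes were also present. Hmga1, an architectural protein that is abundant in stem cells, had 2955 bp at chr17:27554975-27557929 and a pileup of 115. Nsd1, the gene whose protein carries the tag, had 2718 bp at chr13:55210184-55212901 with a pileup of 78 (61.7 to 97.3) and a fold of 5.34. This peak lay inside the gene, 0.402 kb from the nearest annotated end, with its summit more than 1 kb from either end, and 3 other peaks lay within 10 kb. Kmt2a, a histone H3 lysine 4 methyltransferase, had 2300 bp and a pileup of 81. Trim28 (chr7:13022940-13025132), the corepressor that silences endogenous retroviruses, had 2193 bp and 171. Phc1, a Polycomb subunit (2348 bp, 107), and Brd2, an acetyl-lysine reader (2110 bp, 67), were further examples; these last 3 were named after their values were seen. Cxxc5, a CpG-binding protein, was among the 20 widest with 2520 bp and 60.

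Histone genes filled a set of peaks of their own. The 3069 bp of chr13:21831537-21834605 reached H4c18, H2ac24 and H4bc24 with a pileup of 160, and the 3004 bp of chr13:21809343-21812346 reached H2bc23, H2ac23 and H4c17 with 152. Further broad peaks lay at chr13:22042335-22044365 (H4c9, H2ac11 and H2bc11, pileup 143) and on chromosome 3 at H3c15 and H2ac19 (2396 bp, 192), H2ac18 and H3c14 (2245 bp, 168) and H2ac21, H2ac20 and H2bc21 (2234 bp, 89). Histone genes are short and close together, so that 6 of the 8 broad peaks that held a whole protein-coding gene, end to end, were at histone pairs. Of 67 genes with a histone symbol of the usual form, 15 (22.4%, 14.1 to 33.7) had a broad peak at an end, against 1.00% of all protein-coding genes. These 15 share the peaks listed here, several to a peak. The interval treats them as independent and is too narrow. H4bc24, named above, has another form of symbol and is not counted. This family was picked after the peaks were listed. Many of its members have near-identical copies, so reads there may be assigned to the wrong copy and single values are uncertain.

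Genes with a broad peak at an end had a median length of 21.96 kb (13.6 to 30.2), against 27.2 kb (26.1 to 28.2) for those whose widest end peak was intermediate. They were more often very short than these, with 27.1% under 5 kb against 12.5%. The share was 14.4% for genes whose widest end peak was under 1000 bp and 39.9% for genes without an end peak. The 207 genes with a broad end include the 15 histone genes counted above, which share peaks. Of broad peaks, 11.97% (8.69 to 16.3) reached the ends of at least 2 protein-coding genes. The interval includes the 9.8% found in intermediate peaks. Several such pairs are housekeeping genes: Hnrnpa2b1 and Cbx3 (2241 bp, 151), an RNA-binding protein and a heterochromatin protein, Srsf2 and Mfsd11 (2269 bp, 123), Gabpa and Atp5j (2013 bp, 148), and Hnrnpk and Rmi1 (2113 bp, 126).

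The gene lists put few genes in this class; Nr0b1 and Kdm6a, which lie outside chromosomes 1 to 19, were left out of them. Of 20 core pluripotency genes, 3 (15.0%, 5.24 to 36.0) had a broad peak at an end, against 1.00% of all protein-coding genes. These were Trim71, an RNA-binding repressor (chr9:114562677-114565101, 2425 bp, pileup 49), Tdgf1, a Nodal co-receptor (chr9:110946105-110948321, 2217 bp, 104), and Rif1, a regulator of replication timing (chr2:52071078-52073246, 2169 bp, 125). The summit of the Tdgf1 peak stood 1191 bp before the annotated start, more than 1 kb from the gene. Sox2 stood just outside at 1977 bp with a pileup of 119, Pou5f1 had 1624 bp and 152, and Nanog had 438 bp and 58. None of the 20 naive pluripotency genes had a broad peak at an end, and 4 had no end peak. This count leaves out the distal broad peak in the body of Tet2, described below. The widest end peaks were those of Socs3, a feedback inhibitor of LIF signalling (1272 bp, 138), Tet2, a dioxygenase of 5-methylcytosine (1132 bp, 117), Klf5 (1109 bp, 256) and Tbx3 (1093 bp, 163). These 4 peaks, named for their width, were tall and of moderate width. The pileups of the other end peaks in the naive list ran from 13 (Lifr, 198 bp) to 162 (Klf2, 1024 bp). A count of 0 of 20 still allows a share of up to 16.1% (Wilson upper bound).

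Among 50 developmental transcription factors, 3 (6.0%, 2.06 to 16.2) were broad, beside 1.00% of all protein-coding genes and 1.47% of those with any end peak. They included Zic2, of the neural tube (chr14:122474047-122476433, 2387 bp, 112), and Sox17, of endoderm (chr1:4491745-4493763, 2019 bp, 62). The summit of the Sox17 peak lay more than 1 kb from its gene's ends. Of 39 Hox genes none was broad, the widest being Hoxb9 at 1958 bp with a pileup of 41. Chromatin regulators had 2 of 38 (Nsd1 and Kmt2a), cytosolic ribosomal proteins 1 of 30 (Rpl7, 2188 bp, 93) and cell cycle and growth regulators 1 of 25. The chromatin count leaves out Dnmt3a, whose broad peak, described below, holds an internal start and no gene end. Among the genes with any end peak, the widest one had a median width of 1426 bp in the core and 892 bp in the naive pluripotency list, 1111 bp in developmental factors and 872 bp in Hox genes, beside 917 bp over all genes. Signalling and immediate response genes had 0 of 38, with Dusp4, an ERK phosphatase, widest at 1936 bp, and adult tissue genes 0 of 20. Of the adult tissue genes, 16 had no end peak of any width. Wilson upper bounds for these counts of 0 were 8.97% (Hox), 9.18% (signalling) and 16.1% (adult tissue), above the 1.00% of all genes. A lower width separates the lists differently: with 1000 bp, 27.8% of all protein-coding genes had such a peak at an end, as did 15 of 20 core and 7 of 20 naive pluripotency genes, 28 of 50 developmental factors, 14 of 39 Hox genes, 24 of 38 chromatin regulators, 16 of 38 signalling genes and 3 of 20 adult tissue genes.

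Some families that the list of broad peaks brought to attention were counted afterwards, so their shares carry no weight as evidence. Of 20 hnRNP genes, whose products package nascent RNA, 4 were broad: Hnrnpu (2397 bp, 113), Hnrnpa2b1, Hnrnpk and Hnrnpr (2030 bp, 119). Of 11 genes of SR splicing factors, 2 were, Srsf1 (2303 bp, 59) and Srsf2. Forkhead genes had 7 of 41, Krüppel-like factors 3 of 16, Sox genes 2 of 18 and Zbtb genes 5 of 39. The numbered Zfp genes had 2 of 360 (0.556%, 0.152 to 2.00), an interval that includes the share of all genes (1.00%). The olfactory receptor genes had 0 of 1100, but 1080 of them had no end peak of any width.

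**Figure D3:**
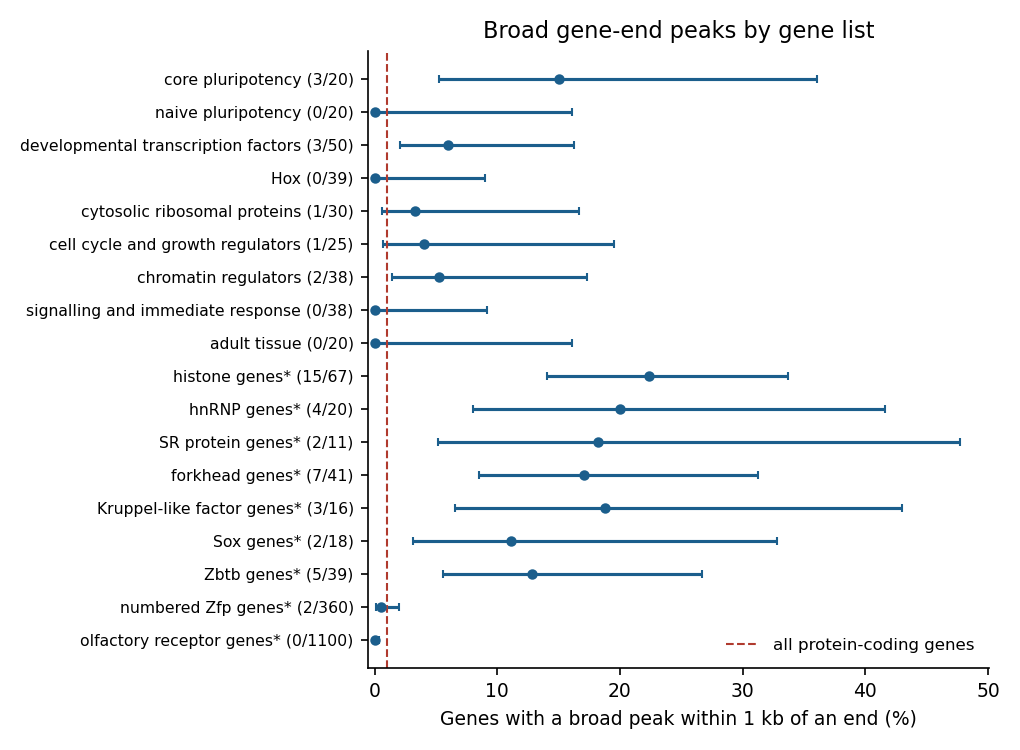
Share of genes with a broad peak within 1 kb of an end (x axis, percent) for each gene list, with broad and all genes of the list in brackets. Points are shares with Wilson 95% intervals, the dashed line is the share of all protein-coding genes (1.00%), and lists with an asterisk are symbol families picked after the peaks were listed. The intervals treat genes as independent, although neighbouring genes such as those of histones can share a peak.

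Around annotated starts, broad peaks extended mainly into the gene. For the 113 broad peaks with protein-coding starts on 1 strand, measured from the most upstream start inside, the median reach was 823 bp upstream and 1451 bp downstream, and 82 (72.6%, 63.7 to 79.9) reached further downstream. In 3514 intermediate peaks the reach was 483 bp and 745 bp and the share 70.7% (69.2 to 72.2), and the intervals of these shares overlap. The summit lay within 250 bp of that start in 44.2% (35.4 to 53.4) of broad peaks, against 73.7% (72.2 to 75.1) of the others. A window of fixed size covers less of a wider peak, so a lower share is partly built into the choice by width. At Tril, for example, 2570 of 2653 bp lay downstream with the summit at 633 bp, while at Tent5a 1658 bp lay upstream with the summit 1384 bp before the start. At Foxo1 the peak reached 2036 bp downstream and the summit stood 64 bp before the start. Over all broad peaks the summit lay a median of 21.6% (17.7 to 24.5) of the width away from the centre, against 15.6% for intermediate peaks. Among intermediate peaks this distance rose with width, from 14.1% below 1250 bp to 20.6% (18.8 to 22.2) from 1750 bp to the threshold. That interval includes the 20.9% of broad peaks under 2250 bp, so the distance showed no step at the threshold.

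**Figure D4:**
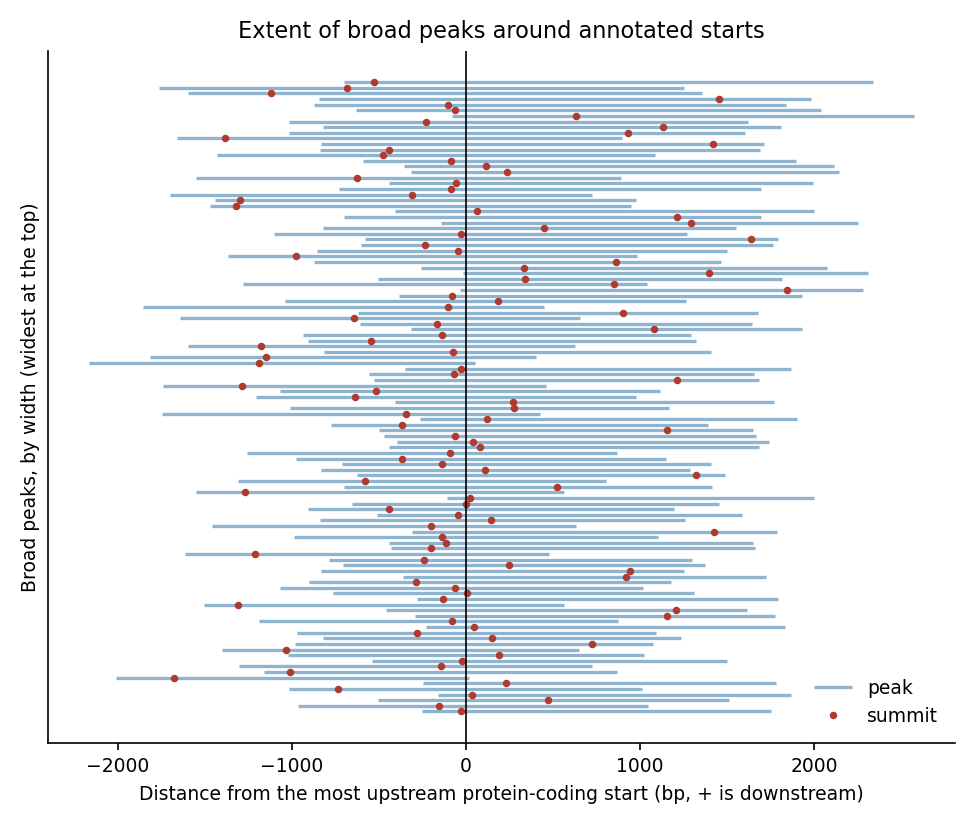
Reach of 113 broad peaks (blue lines) and place of their summits (red points) around the most upstream protein-coding start inside (x axis, bp, positive downstream), ordered by width with the widest at the top. Lines reach further to the right in 82 peaks, and 50 summits lie within 250 bp of the start.

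The promoters inside broad peaks were rich in CG, much like those in peaks of intermediate width. Of 207 genes with a broad end, 156 have an entry in the promoter table, 115 of the 169 gene-end peaks hold a protein-coding start from it, and 235 starts of 189 genes of any kind fell inside 147 broad peaks. Over the 300 bases around each start (250 before and 50 after), the median CpG observed/expected ratio was 0.847 (0.823 to 0.885), with a GC content of 68.0% and 29 CG dinucleotides. In intermediate peaks the ratio was 0.838 (0.831 to 0.845), with 66.0% and 26, and the intervals overlap. Starts in narrower peaks had 0.721, 60.0% and 19, and those in no peak 0.204, 47.3% and 3. A ratio above 0.6 was found in 86.0% of starts in broad peaks and 36.4% of all 31396 starts. The 33 broad starts at or below 0.6 included Tdgf1 (0.545), Gcnt4, a glycosyltransferase (0.275), and Gm10840 (0.235), whose sequences are given above. Starts of neighbouring transcripts share sequence, so these counts are not independent.

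Short motifs were counted in the same 300 bases. The GC box GGGCGG, searched on both strands like every motif here, was in 77.0% of starts in broad peaks, in 75.3% of those in intermediate peaks and in 36.0% of all promoters of the same length. Among the printed stretches it was present in all but those of H4bc24 and Gcnt4. The TATAAA box was in 6.38% of broad starts, 5.17% of those in intermediate and 6.16% of those in narrower peaks, against 13.6% of all promoters, and in none of the 10 printed stretches. The CCAAT box was in 30.2% (24.7 to 36.4) of broad starts, 34.9% of those in intermediate peaks and 37.3% of all promoters, and is present in the printed stretches of H4bc24, Adrb1, H2ac23 and Gcnt4. The ETS-type motif CCGGAAG was in 8.94% (5.92 to 13.3) of broad starts, against 14.9% in intermediate peaks and 19.5% in narrower ones, with 9.0% of all promoters. The NRF1-type motif GCGCATGC was in 3.83% of broad and 5.27% of intermediate starts against 2.70% of all, the E-box CACGTG in 7.23% and 10.5% against 7.14%, and the CRE motif TGACGTCA in 2.13% and 2.94% against 1.83%. For these 3 the interval of the broad starts includes the share of all promoters. None of the motifs contains another, and a match shows only that these letters are there.

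**Figure D5:**
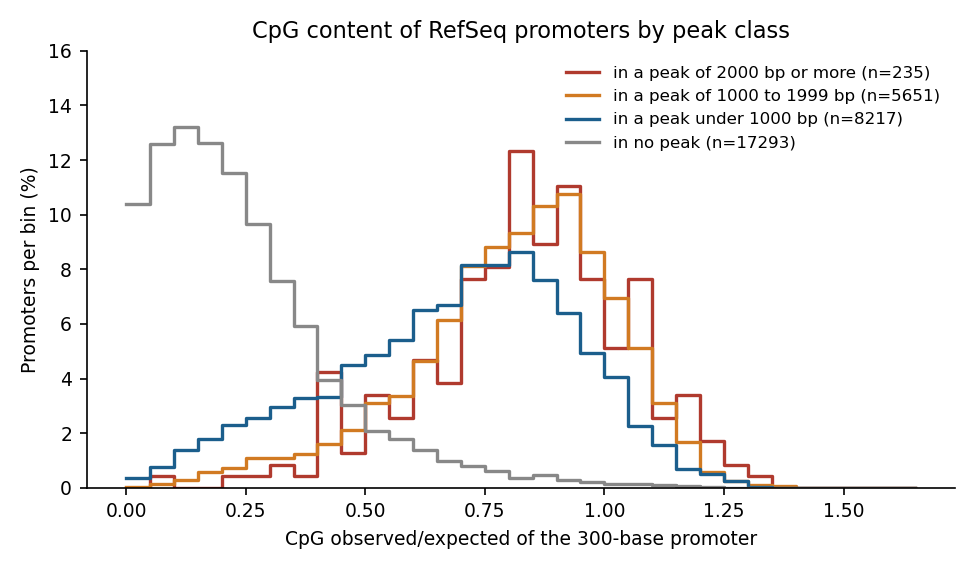
Distribution of the CpG observed/expected ratio of 300-base RefSeq promoters (x axis) as percent of promoters per bin of 0.05 (y axis), for starts inside peaks of 3 width classes and in no peak. The curves for broad peaks (median 0.847) and for intermediate peaks (median 0.838) lie over each other, right of that for starts in no peak (median 0.204).

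The 94 distal broad peaks had no annotated gene end within 1 kb. Their distance to the nearest protein-coding end was up to 10 kb for 25, 10 to 100 kb for 41 and more for 28, with a median of 32.9 kb. At 18 of them the promoter table places a start inside the peak, and these were internal starts within longer genes, protein-coding except for the lncRNA Gm35343. They included Hivep2 (chr10:13964617-13967630, 3014 bp, pileup 48) and Rreb1 (2707 bp, 50), both large zinc finger factors, Dnmt3a, the de novo DNA methyltransferase (chr12:3806143-3808666, 2524 bp, 41), and Cpeb1, a regulator of poly(A) tails (2544 bp, 23). Others were Ubtf, a factor of ribosomal RNA transcription (2085 bp, 60), Enah, an actin regulator (2061 bp, 46), and Fblim1, a filamin-binding protein (2093 bp, 133). By the gene's ends alone these would be called distal, although they hold an annotated start.

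The other 76 distal peaks held no start in the table. Some lay in gene bodies, such as that in Tet2 (chr3:133532470-133534602, 2133 bp, pileup 101), 10.5 kb from the nearest end, and that in Ywhaz, the zeta 14-3-3 protein (2255 bp, 151), at 8.38 kb. The 76 varied in shape. A fold of 10 or more, a bound chosen after the values were seen, was reached by 24, with summits close to the middle (median 9.79% of the width from the centre, 4.57 to 16.5) and no other peak within 10 kb in 22. The remaining 52 had their summits at 22.3% (16.4 to 30.4), and 27 of them had no other peak within 10 kb. Peaks nearby can raise the local background and so lower the fold, so the count of neighbours is not independent of this split. Examples of the first kind are a peak at chr9:26406311-26408400 (2090 bp, pileup 78, fold 14.5), 325 kb from B3gat1, and at chr12:62547769-62549831 (2063 bp, 63, fold 12.4), 690 kb from Lrfn5. The 3 peaks of the greatest width in the second kind lay at chr9:3011549-3036697 (25149 bp), chr3:6297507-6307491 (9985 bp, pileup 153, fold 4.13) and chr10:27818730-27825830 (7101 bp, 113). No genome sequence or repeat annotation was used here, so what these distal stretches contain was not tested.

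The rest of the 10 widest distal peaks were chr9:46132763-46138267 (5505 bp, pileup 125), in a gene body 85.9 kb from the end of Sik3, chr2:80812059-80817336 (5278 bp, 102), chr2:22001953-22007164 (5212 bp, 80), chr3:91095094-91099964 (4871 bp, 114), chr9:3000118-3004971 (4854 bp, 1127), chr8:52303763-52308440 (4678 bp, 52) and chr1:24611658-24616113 (4456 bp, 2363). The peak on chromosome 8 was the most remote, 1203 kb from the nearest protein-coding end. At the other extreme, the lowest pileups of distal peaks were 14 (7.65 to 23.5) at chr8:125020656-125023438 (2783 bp), 7.62 kb from Tsnax, and 19 at chr8:20329066-20331291.

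In 7 broad peaks the local background itself was 100 or more, with pileups of 417 to 2363. These were 4 peaks within chr9:3000118-3036697, chr1:24611658-24616113, chr14:19415727-19419535 (pileup 1592) and chr17:39843110-39848697 (pileup 2117), the last at the end of the lncRNA AY036118. None was at a protein-coding end. The 5 tallest of all broad peaks were among them, yet their folds ran from 2.59 on chromosome 1 to 14.1 on chromosome 14, since the background was also high. Without these 7, the share at protein-coding ends was 61.0% and the median pileup 67.

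Few broad peaks lay near another broad peak. Linking those within 50 kb of each other left 268 single and 16 in 6 groups. The groups lay at histone genes on chromosomes 13 and 3, at Grm4 and Hmga1 on chromosome 17 and around Cxxc5 on chromosome 18. The others lay at Fcgr3 and tRNA genes on chromosome 1 and in the stretch on chromosome 9. Counting peaks of any width, 45.4% of broad peaks had no other peak within 10 kb, beside 40.3% of intermediate peaks. At gene ends the shares were 37.9% (30.9 to 45.4) of broad and 39.1% of intermediate peaks, and among distal peaks 61.7% (51.6 to 70.9) and 44.3%. By chromosome, broad peaks made up from 0.201% (chromosome 8) to 0.617% (chromosome 9, 0.418 to 0.910) of peaks, and 4 of those on chromosome 9 belong to that stretch.

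Among non-coding genes, tRNA genes stood in few but dense places. Of 391 tRNA genes, 11 (2.81%) had an end inside a broad peak, in 4 peaks. The peak at chr1:171079181-171081258 (2078 bp, pileup 131) reached within 1 kb of the ends of n-TEctc7, n-TGtcc4, n-TDgtc6, n-TLcag8 and n-TGgcc14, the last of which is not among the 11. tRNA genes exist in near-identical copies, and single values are uncertain. Of 12408 lncRNA genes 39 (0.314%) and of 1136 miRNA genes 4 (0.352%) had an end inside, and of 1286 snoRNA genes 0. In peaks of any width, ends of 67.3% of tRNA, 19.1% of lncRNA, 12.5% of miRNA and 3.97% of snoRNA genes lay inside. These counts use no window around the peak, unlike the 1.00% of protein-coding genes, which was counted within 1 kb.

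Marker genes of the labelled cell type and of others were counted as well. Of 8 stem cell markers 7 had a peak at an end, with a median pileup of 114 and Esrrb as the exception, none of them broad. Of 6 fibroblast or feeder markers 3 had one (median pileup 20), of 5 primitive endoderm markers 4 (45, including the broad peak at Sox17) and of 4 trophectoderm markers 3 (65). Open chromatin at a marker is not its expression, and the part of other cells in these values was not tested.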

How the data were processed

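The peaks of 1 ATAC-seq library were analysed. Per the submitters' processing notes, the tools were MACS2 2.2.6, deepTools 3.2.1, SAMtools 1.9, Bowtie2 2.3.4.1 and bcl2fastq 2.20.0.422, with the builds GRCm38.p6 and mm10. The sources used here give no read filters, duplicate removal, shift for Tn5 or total read count. The name of the deposited list gives a q threshold of 0.05 and no control, so the caller's local background came from the same library. Besides peak start, end and summit, the deposited list holds an integer score (10 times -log10 q, rounded down, in all 77629 peaks), the authors' fold enrichment as a ratio, and the authors' -log10 p and -log10 q. Peak width depends on the caller's joining rule and on depth. Positions are printed from 1.

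The pileup and background at each summit were solved from fold = (pileup + 1)/(background + 1) and the Poisson -log10 p. Whole pileups resulted for 77626 peaks (99.996%, tolerance 0.01). Genes (20661 protein-coding on chromosomes 1 to 19) and promoters came from RefSeq tables of GRCm38.p6. The promoter table covers 79.6% of these genes. Gene ends counted within 1 kb, by overlap or by summit. Shares carry Wilson 95% intervals, medians order-statistic intervals and pileups exact Poisson intervals, all for counting error only. Functions were tested on simulated data, where 100% of 2000 pileups and of 200 planted peaks were recovered. The work used scipy 1.17.1, numpy 2.4.6, matplotlib 3.10.9, pandas 2.3.3 and Python 3.11.15.

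The regions, the 9 gene lists, the 7 motifs and the alternatives (other widths, windows, gene sets, q and joining) were chosen with earlier results of these data known, and 9 symbol families after the peaks were listed. Named were the 20 widest gene-end and 10 widest distal peaks, the 5 nearest the threshold on each side, the 5 tallest and 5 lowest, and up to 4 members per list. Some genes that this rule selects are not reported here. Further genes were named after their values were seen.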

Additional observations from a re-analysis of the deposited data

Results flagged for a closer look

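Outside chromosomes 1 to 19, in data not used for the comparisons, 12 further peaks of 2000 bp or more were found. They lay on chromosome X (5), chromosome Y (2), the mitochondrial genome (2) and the unplaced scaffold JH584304.1 (3). The widest on X had 3245 bp with a pileup of 68, while 2 on the scaffold had 27381 and 18182 bp with pileups of 580 and 688.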

How the results depend on the processing

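Of 67 values recomputed under alternative settings, 50 stayed close to the main value: within 1.5 times for the number of peaks, and inside its 95% interval for shares and medians. The number of broad peaks was 1641 at 1500 bp, 28 at 3000 bp and, with peaks up to 500 bp apart joined (chosen after seeing the data), 505. The share at protein-coding ends was 65.3% at 1500 bp, 14.3% at 3000 bp, 46.5% by summit, 66.9% with all RefSeq genes, and 47.9% where a start had to lie inside (chosen after seeing the data). The share of protein-coding genes with a broad end was 6.12% at 1500 bp, 0.0436% at 3000 bp and 0.760% by summit. For core and naive pluripotency genes together, 7.5% at 2000 bp became 20% at 1500 bp and 0% at 3000 bp, and for developmental factors 6.0% became 18% and 0%. At 3000 bp the median pileup was 83.5 and the summit lay 17% of the width from the centre. Joining over 150 bp changed nothing, since the smallest gap between peaks was 197 bp. No paired analysis was possible because 1 library was analysed. Depth limits the lowest peaks: the lowest pileup, 14, has an interval of 7.65 to 23.5.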

Other observations

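Joining peaks up to 500 bp apart, a setting chosen after seeing the data, made 222 further regions of 2000 bp or more, 157 of them at protein-coding ends. They brought in list members that are not broad as called, among them Lin28a and Gdf3 of pluripotency, Sox1, Neurog2 and Pax7 of the nervous system and muscle lineages, Hoxd8, and the signalling genes Dusp4, Etv4, Sp5 and Spred1. The joined region at Etv4 was 3377 bp wide, that at Dusp4 2768 bp and that at Sox1 2699 bp, while the region at Nsd1 grew from 2718 to 3386 bp. The number of genes with a broad end rose from 207 to 383. These stretches consist of separate called peaks with gaps between them.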
